A study of Mus musculus with 55 samples.

Results

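The 10 genes described here are known for their expression in the choroid plexus, the secretory tissue that lies in the brain ventricles beside the hippocampus. They are Ttr, Folr1, Clic6, Kcnj13, Kl, Sostdc1, Otx2, Prlr, Aqp1 and Slc4a5, and they were found by symbol among 55487 genes of the deposited gene table. RNA-seq had been run on the dorsal hippocampus of 55 mice, 1 library per mouse, and all 10 genes passed the filter on low counts that left 16168 genes. The study compared wild-type (WT) mice of the C57/BL6j background with knockout (KO) mice of the same background that lack exon 4 of Cnih3, an auxiliary subunit of AMPA receptors. No mouse received a drug or hormone, and stage was read from vaginal cytology. The WT mice were a mix of offspring of B6 parents and mutation-negative littermates of the Cnih3 line, whereas all 28 KO mice came from the Cnih3 line. The WT groups were metestrus (4 mice aged 13.0 to 18.57 weeks), diestrus (6 mice, 11.71 to 17.14 weeks), proestrus (5 mice, 12.0 to 18.71 weeks), estrus (7 mice, 16.29 to 20.29 weeks) and males (5 mice, 12.0 to 23.71 weeks). The KO groups were metestrus (5 mice, 13.29 to 22.57 weeks), diestrus (6 mice, 10.86 to 23.43 weeks), proestrus (4 mice, 13.0 to 14.57 weeks), estrus (6 mice, 13.0 to 20.71 weeks) and males (7 mice, 18.29 to 23.71 weeks). The question was how far these genes differed between mice, stages, sexes and genotypes, and whether Otx2 or Prlr changed over the cycle relative to the other choroid plexus genes.

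The choroid plexus is a fringe of epithelium around a vascular core that makes cerebrospinal fluid (CSF). Its epithelial cells carry out ion and water transport, hold folate and thyroid hormone carriers at very high levels, and secrete proteins into the CSF. In the lateral ventricle it is attached along the fimbria of the hippocampus. In whole tissue, fewer cells of a type and less RNA per cell cannot be told apart.

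Library totals ran from 25881295 to 63547098 counts, with a median of 53384170. Levels below are CPM, counts scaled to a common library size, with library sizes adjusted by the trimmed mean of M values (TMM), and log2 CPM adds 0.5 to each count. Hippocampal neuron genes were present in every library, and the summed level of 8 of them was 1704 to 1900 CPM in WT proestrus and 1886 to 2115 CPM in WT estrus. In the deposited gene table the columns run in 2 descending series of mouse labels. The first series, of 23 mice used here, holds all 9 proestrus mice and all 12 males with 1 metestrus and 1 estrus mouse, and the second holds the other 32. What this order stands for is not given in the sources used here, and the order cannot be told apart from the proestrus and male groups.

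Ttr encodes transthyretin, the thyroid hormone and retinol carrier of the CSF, and was the most abundant member per length of exon (median 53.4 CPM per kb over all mice, against 0.0524 to 4.11 for the other 9). The gene lies on chromosome 18, 20665280 to 20674321, in GRCm38. Its level ran from 3.83 CPM in a WT estrus mouse to 2098 CPM in a KO proestrus mouse, a span of 9.09 on the log2 scale. The 5 WT proestrus mice had 29.4, 228.6, 640.4, 1291 and 1317 CPM, and the 7 WT estrus mice had 3.83 at the lowest, 19.4 at the median and 91.5 at the highest. Thus 4 of the 5 WT proestrus mice lay above every WT estrus mouse, and the fifth lay inside the estrus range.

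In WT metestrus Ttr was at 6.54, 11.35, 53.8 and 58.7 CPM, and in WT diestrus at 22.2, 163.8 and 1093 CPM (lowest, median, highest). The 5 WT males had 67.0, 71.4, 103.5, 652.2 and 983.7 CPM. Every KO group held both poor and rich libraries. KO metestrus mice had 16.6, 17.8, 35.5, 63.4 and 1249 CPM, and KO proestrus mice had 41.9, 42.3, 177.0 and 2098 CPM. In the larger KO groups the lowest, median and highest Ttr levels were 8.16, 188.7 and 636.2 CPM in diestrus, 11.75, 56.1 and 1195 CPM in estrus, and 9.00, 34.9 and 1958 CPM in males. By mean log2 CPM the order was WT proestrus (8.55 ± 2.30, SD, n = 5), WT males (7.64 ± 1.86, n = 5), KO proestrus (7.32 ± 2.66, n = 4), WT diestrus (7.09 ± 2.05, n = 6), KO diestrus (6.78 ± 2.42, n = 6), KO males (6.62 ± 3.28, n = 7), KO estrus (6.12 ± 2.43, n = 6), KO metestrus (5.93 ± 2.56, n = 5), WT estrus (4.53 ± 1.55, n = 7) and WT metestrus (4.46 ± 1.595, n = 4). Neighbours in this order differed by less than the SD of either group.

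Otx2 encodes a homeodomain transcription factor that specifies choroid plexus epithelium and is passed from it into the CSF. It lies on chromosome 14, 48657677 to 48673819, minus strand. WT proestrus mice had 0.676, 2.66, 7.805, 10.5 and 12.5 CPM, and WT estrus mice had 0.308, 0.616 and 1.27 CPM (lowest, median, highest). As for Ttr, 4 of 5 WT proestrus mice lay above all WT estrus mice. The remaining WT values were 0.489, 0.634, 1.47 and 1.54 CPM in metestrus, 1.196, 2.16 and 4.04 CPM (lowest, median, highest) in diestrus, and 1.83, 1.925, 1.97, 3.52 and 7.21 CPM in males. The KO groups overlapped each other. Otx2 was at 0.322, 0.621, 1.602, 1.82 and 9.59 CPM in KO metestrus and at 0.167, 0.769, 2.48 and 9.15 CPM in KO proestrus. Lowest, median and highest were 0.4, 1.91 and 3.38 CPM in KO diestrus, 0.163, 1.66 and 9.89 CPM in KO estrus, and 0.562, 1.58 and 9.68 CPM in KO males.

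Prlr encodes the prolactin receptor, which is abundant in choroid plexus epithelium and signals through JAK2 and STAT5. It lies on chromosome 15, 10177238 to 10349180, plus strand. WT proestrus mice had 3.30, 3.88, 8.76, 12.9 and 15.4 CPM, and WT estrus mice had 1.995, 3.29 and 3.996 CPM (lowest, median, highest), so that 3 of 5 proestrus mice lay above all estrus mice. The other WT groups had 1.79, 1.95, 2.865 and 3.44 CPM (metestrus), 2.55, 3.40 and 8.33 CPM (diestrus; lowest, median, highest) and 2.34, 3.20, 3.28, 7.60 and 11.7 CPM (males). The KO groups again overlapped throughout. Prlr was at 1.99, 2.08, 2.72, 2.945 and 20.1 CPM in KO metestrus and at 2.705, 4.11, 5.46 and 26.3 CPM in KO proestrus. Lowest, median and highest were 2.36, 3.62 and 4.97 CPM in KO diestrus, 2.12, 5.13 and 19.8 CPM in KO estrus, and 2.01, 3.09 and 30.7 CPM in KO males. The lowest Prlr level in any of the 55 libraries was 1.79 CPM, whereas Otx2 fell to 0.163 CPM.

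**Figure D1:**
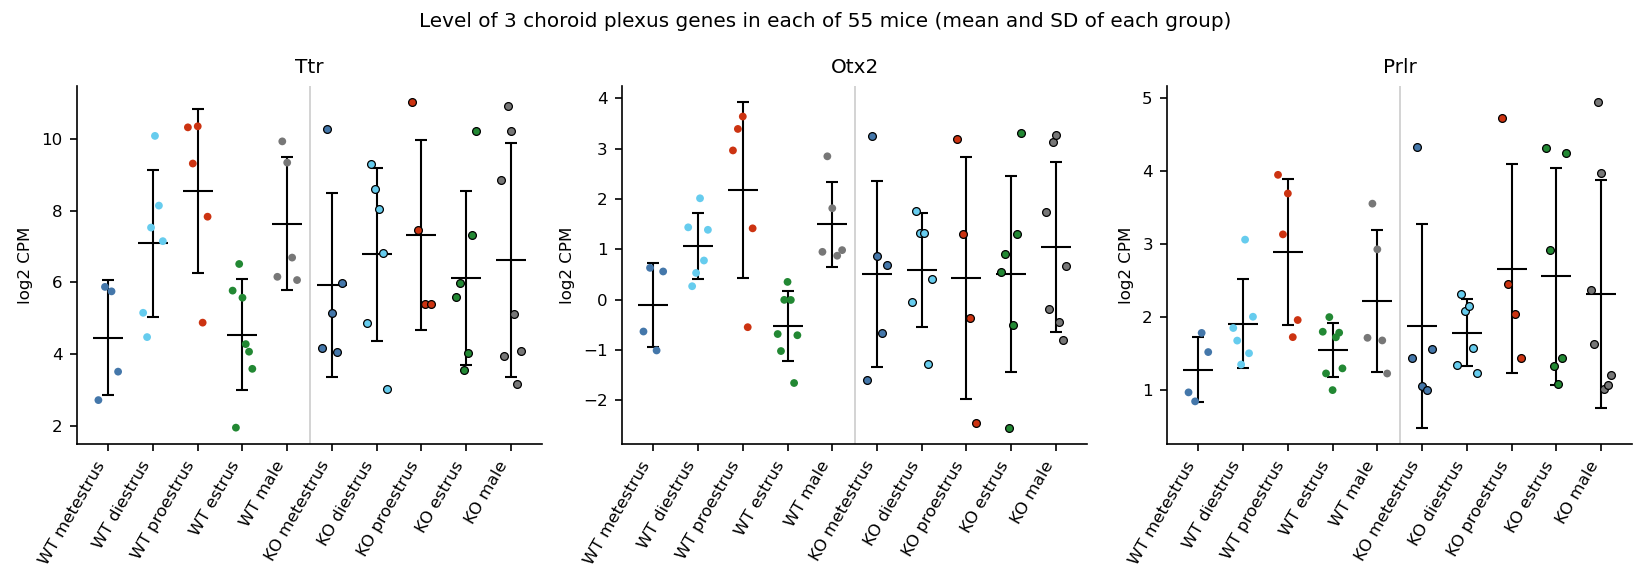
Log2 CPM of Ttr, Otx2 and Prlr in each mouse, with 1 point per mouse, a black dash for the group mean and bars of 1 SD; KO points have a black outline. In WT mice 4 of 5 proestrus points lie above the estrus points for Ttr and Otx2 and 3 of 5 for Prlr, and the KO groups overlap.

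The transporters and channels of the epithelium were rare transcripts in these libraries. Folr1, the folate receptor that moves folate into the CSF (chromosome 7), ran from 0 to 16.2 CPM and had no counts in 2 mice. Aqp1, the apical water channel (chromosome 6), ran from 0 to 3.65 CPM with no counts in 9 mice, and Slc4a5, a sodium bicarbonate cotransporter (chromosome 6), from 0 to 5.61 CPM with no counts in 3 mice. Kcnj13, the inward rectifier Kir7.1 (chromosome 1), ran from 0.0403 to 10.6 CPM and Clic6, a chloride channel family protein (chromosome 16), from 0.3998 to 30.3 CPM. The secreted and membrane-shed members had a higher lower end. Sostdc1, a secreted antagonist of BMP and Wnt signals (chromosome 12), ran from 4.14 to 31.1 CPM, and Kl, which encodes klotho, a co-receptor for FGF23 with a shed form in the CSF (chromosome 5), from 11.8 to 41.4 CPM. On the log2 scale the spread between mice of 1 group was 2.57 (pooled SD) for Aqp1, 2.35 for Ttr, 2.24 for Slc4a5 and 2.21 for Folr1, but 0.75 for Sostdc1 and 0.48 for Kl.

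The members were higher in WT proestrus than in WT estrus, except Kl, which did not pass the threshold. The number called was 9 of 10, against 6.82% of the 16168 genes tested in either direction and 5.25% in the direction of higher in proestrus (limma with voom quality weights, FDR under 0.05). Ttr rose by 4.59 ± 1.20 on the log2 scale (SE; adjusted p = 0.0142, limma), from a median of 19.4 to 640.4 CPM. The epithelial transport genes rose nearly as far: Folr1 by 4.13 ± 1.19 (adjusted p = 0.0258), Aqp1 by 4.02 ± 1.23 (0.0371), Slc4a5 by 3.93 ± 1.11 (0.0234) and Kcnj13 by 3.81 ± 0.98 (0.0126). Otx2 rose by 3.16 ± 0.80 (adjusted p = 0.0113) and Clic6 by 2.53 ± 0.74 (0.0273). The changes were smaller for Prlr (1.66 ± 0.51, 0.0394) and Sostdc1 (1.52 ± 0.38, 0.0107), and Kl had 0.72 ± 0.25 with an adjusted p of 0.0683. The median of the 10 log2 fold changes was 3.48, beside -0.00617 for all genes tested.

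This comparison rested on few mice and on the weights given to libraries. WT proestrus replicate 4, with the lowest Ttr of its group, had a weight of 0.9343, and replicate 5, with the second lowest, had 0.1938, the smallest of the 55 libraries. Without quality weights 0 of 10 members and 0% of all genes were called (lowest adjusted p of a member 0.198, with 9 of 10 at an unadjusted p under 0.05). Without WT proestrus replicate 1 only Otx2 was called (1 of 10, beside 4.43% of all genes), without replicate 2 the number was 5 (beside 5.3%) and without replicate 3 it was 4 (beside 3.47%). Without replicate 4 all 10 were called (beside 10.4%). Then 9 were also called lower in WT metestrus than in WT proestrus, and 4 in WT diestrus than in WT proestrus. These stood beside 2.21% and 8.08% of all genes, called in either direction. By edgeR's quasi-likelihood test no member passed (lowest adjusted p 0.0613, Otx2, with 10 of 10 at an unadjusted p under 0.05), and 0.0928% of all genes passed. DESeq2 called 4 members (Ttr, Folr1, Kcnj13 and Otx2) beside 0.458% of genes. With age in weeks as a covariate 0 of 10 members were called (lowest adjusted p 0.0506, Otx2, with 10 of 10 at an unadjusted p under 0.05) beside 1.78% of all genes. In the main fit 3581 of the 16168 genes had an unadjusted p under 0.05 (limma). That number was not counted for the alternatives, so the members' counts at an unadjusted p under 0.05 have no share of all genes beside them. The members also vary together, so these counts do not make up for the missing calls. Among mice of 14 weeks or more, with 3 WT proestrus and 7 WT estrus mice, 10 of 10 members were called beside 12.6% of all genes. In this subset 9 of 10 were called lower in WT metestrus than in WT proestrus, beside 2.98% called in either direction. The age cut left out WT proestrus replicates 2 and 4, and replicate 4 alone, when left out, also gave 10 of 10. The subset is therefore not a separate check on age.

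**Figure D2:**
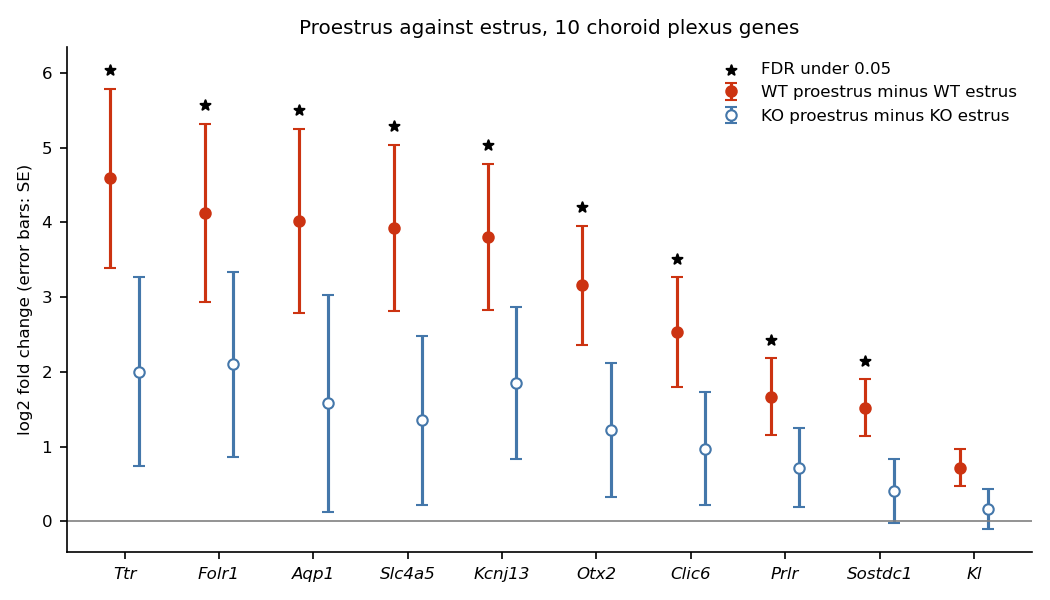
Log2 fold change (points) and SE (bars) of the 10 genes between proestrus and estrus, filled red for WT and open blue for KO; a star marks an FDR under 0.05. All 10 estimates lie above 0 in both genotypes, and 9 are starred in WT and none in KO.

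In the other 25 comparisons no member was called by limma in the fit of all mice. The member estimates in WT proestrus nevertheless lay above those of WT metestrus for 10 of 10 genes (median difference -3.08 for metestrus minus proestrus). Each had an unadjusted p under 0.05 (limma), as did 2168 of the 16168 genes tested. Members that vary together are not 10 separate results. Their lowest adjusted p was 0.0718 (Sostdc1, limma), and 0.767% of all genes were called. In WT the share of all genes called was 7.24% between metestrus and diestrus, 9.66% between diestrus and proestrus, 22.1% between diestrus and estrus and 0% between metestrus and estrus, and the members' median differences were -1.54, -1.49, 1.90 and -0.10. So in the comparisons with the most genes called, those of diestrus, the members did not pass with all mice. The nearest for diestrus against estrus was Ttr (3.10, adjusted p = 0.0699, limma). Without WT diestrus replicate 1, 2 or 6, Ttr was called in WT metestrus against diestrus and in WT diestrus against estrus. Kcnj13 was also called in the latter without replicate 1 or 2. Each of these had 1 or 2 of 10 members called, beside 4902 to 6643 of the 16168 genes.

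In KO mice the members' estimates were also above 0 in proestrus against estrus for 10 of 10 genes, with a median of 1.29 and a lowest adjusted p of 0.311 (Kcnj13, limma), and 0.507% of all genes were called. Ttr had a difference of 2.00 ± 1.27 and Otx2 of 1.22 ± 0.90. Of all genes, 10.4%, 4.37% and 0% were called where KO metestrus was set against diestrus, proestrus and estrus, respectively, and 34.3% and 30.7% where KO diestrus was set against proestrus and estrus. Members' medians in these were -0.78, -1.68, -0.54, -0.85 and 0.34. No member was called for the difference between genotypes of any stage pair, where 0% of all genes were called in each of the 6 interactions. For proestrus minus estrus the KO effect was lower than the WT effect by a median of 1.95 on the log2 scale (10 of 10 genes, lowest adjusted p 0.337), so that the WT and KO effects were not shown to differ.

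Between the sexes no member was called in WT (median of the females minus males difference -0.76, with 0.0309% of genes called) or in KO mice (median -0.01, with 5.93% called). For KO against WT no member was called in metestrus (0.0247% of all genes called), diestrus (0%), proestrus (0.315%), estrus (0.179%), males (0.00619%) or over all 5 conditions (3.4%). The lowest adjusted p over these 6 comparisons was 0.450, in estrus, where all 10 members had a higher estimate in KO mice (median 0.92).

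Other genes of the tissue were compared between the same groups, WT proestrus and WT estrus. Of 22 further choroid epithelium genes, 20 were tested and 15 were called, with a median log2 fold change of 1.84. All 15 were higher in proestrus, beside 5.25% of all genes called in that direction. The largest belonged to Kcne2, a potassium channel subunit (4.84, adjusted p = 0.0210, limma), and to Tmem72 (3.99, 0.0292). At the other end, the transporter gene Slc29a4 (0.18) and the carbonic anhydrase gene Car12 (0.44) did not pass. Their summed level was 144.6 to 804.0 CPM in WT proestrus and 147.8 to 195.2 CPM in WT estrus. In KO proestrus against KO estrus 0 of the 20 were called and the median was 0.71. In WT diestrus 5 of the 20 were called lower than in proestrus and 1 lower than in estrus. Of the 16168 genes, 1131 and 2113 were called lower in these. In KO diestrus 4 were called lower than in proestrus and 2 lower than in estrus, beside 3143 and 3127 of the 16168 genes called lower. The KO counts are thus close to or below the share over all genes. Of 9 transport genes of CSF secretion that neurons and glia also express, 3 were called in WT proestrus against WT estrus. All 3 were higher in proestrus, beside 5.25% of all genes. They were Car14 (0.70) and Car2 (0.41), both carbonic anhydrases, and the anion exchanger Slc4a2 (0.69). The median of these 9 was -0.11, and the sodium pump subunit Atp1b1 had -0.33.

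Markers of neighbouring tissues were also measured, and their counts are to be read against the 6.82% of all genes called in this comparison, to which 1 gene of a list this short is close. Among 10 ependymal genes 1 was called, Rsph1 (0.81, adjusted p = 0.0309), with a median over the list of 0.44, and the summed level was 21.3 to 66.4 CPM in WT proestrus and 23.6 to 38.8 in WT estrus. Of 8 tested meningeal fibroblast genes 2 were called, Dcn (1.37) and Col1a1 (0.85), with a median of 0.77 and sums of 16.4 to 67.2 and 16.1 to 33.7 CPM. Of 9 tested thalamus and habenula genes 1 was called higher, Tnnt1 (0.89), and of 8 hippocampal neuron genes 1 was called lower, Spink8 (-0.43), with list medians of 0.003 and -0.19. None of the 3 tested pituitary genes, Prl (-0.05), Gh (-0.20) and Pomc (-0.58), was called, and Lhb had no counts in any mouse. The part of each tissue in the members' difference was not tested.

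The members followed Ttr from mouse to mouse within groups. With group means removed, Pearson's r of log2 CPM with Ttr over the 55 mice was 0.934 for Kcnj13, 0.921 for Folr1, 0.917 for Clic6, 0.895 for Slc4a5, 0.813 for Sostdc1, 0.810 for Otx2, 0.797 for Prlr, 0.781 for Kl and 0.761 for Aqp1, and Spearman's rho ran from 0.701 (Kl) to 0.932 (Folr1). Each of the 9 relations had a permutation p of 1e-05, the smallest that 100000 permutations can give, for r and for rho, and 1e-05 after Benjamini-Hochberg adjustment over the 9. Without the 2 mice farthest from the median of Ttr, r was 0.728 to 0.926. Within the first series of columns (23 mice) r was 0.802 to 0.970 and within the second (32 mice) 0.644 to 0.907. The points share a library and its depth.

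The steepness of the relation differed widely between members. Per unit of log2 Ttr, log2 Folr1 rose by 0.87 ± 0.06 (SE), Slc4a5 by 0.85 ± 0.06, Aqp1 by 0.83 ± 0.11 and Kcnj13 by 0.75 ± 0.04. Clic6 had a slope of 0.57 ± 0.04 and Otx2 of 0.50 ± 0.06. Prlr (0.36 ± 0.04), Sostdc1 (0.26 ± 0.03) and Kl (0.16 ± 0.02) had the lowest.

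The members with the lower slopes kept a level above 0 where Ttr was low. To describe it, a curve of 2 terms, a constant floor plus an amount proportional to Ttr, was fitted to each gene over all mice, a step chosen after the data were seen. The floor was 14.1 ± 0.32 CPM (jackknife SE over mice) for Kl, 5.63 ± 0.22 for Sostdc1, 2.52 ± 0.19 for Prlr, 1.20 ± 0.16 for Clic6 and 0.644 ± 0.10 for Otx2. In percent of the median level over mice, that was 87.9% for Kl, 76.9% for Sostdc1, 76.6% for Prlr, 47.1% for Clic6 and 40.9% for Otx2, but 23.0% for Kcnj13, 8.21% for Aqp1, 5.11% for Slc4a5 and 0% for Folr1. Above the floor, per 1000 CPM of Ttr, the fit added 13.4 CPM of Clic6, 13.0 of Kl, 12.1 of Sostdc1, 10.4 of Folr1 and 8.87 of Prlr. It added 6.26 CPM of Otx2, 5.69 of Kcnj13, 3.19 of Slc4a5 and 1.75 of Aqp1. Which cells the floor comes from was not tested.

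**Figure D3:**
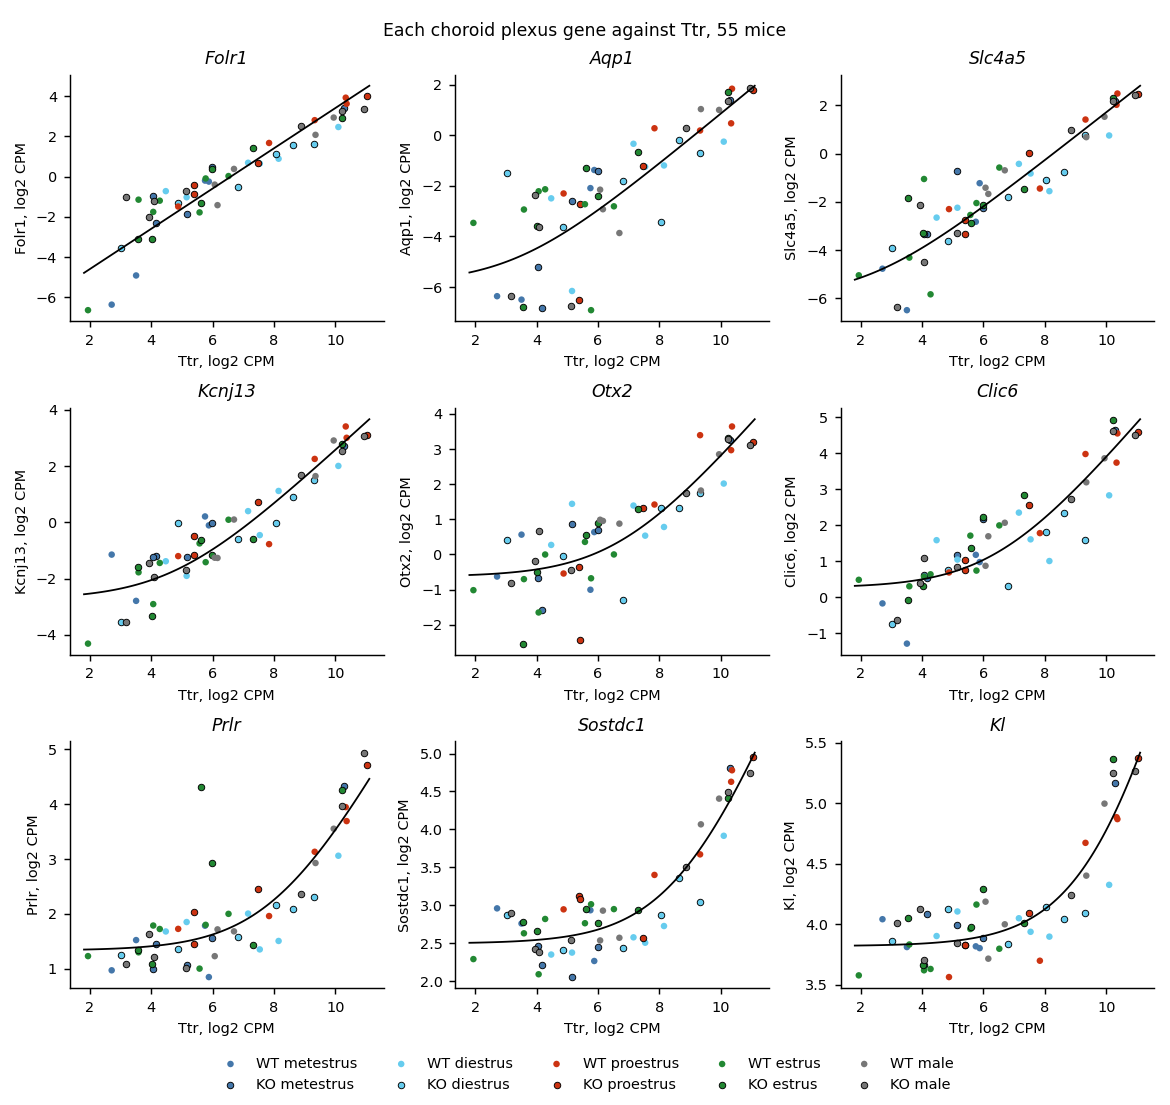
Log2 CPM of 9 choroid plexus genes (y) against log2 CPM of Ttr (x) in 55 mice, coloured by stage or male, with a black outline for KO; the line is the fitted floor plus a term proportional to Ttr. Folr1, Slc4a5 and Kcnj13 climb along the whole x axis, whereas Prlr, Sostdc1 and Kl stay near their floors (2.52, 5.63 and 14.1 CPM) until Ttr is high, and a KO estrus mouse lies 2.74 above the line in Prlr.

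To ask whether Otx2 or Prlr changed relative to the other members, the log2 ratio of each to the mean log2 CPM of the other 8 genes was taken in every mouse. The Otx2 ratio averaged -0.78 ± 0.43 (SD) over the 5 WT proestrus mice and -0.77 ± 0.81 over the 7 WT estrus mice. The difference was -0.01, with an interval of -0.92 to 0.88 at 95% (exact two-sided permutation test, p = 0.975, adjusted p = 0.983). The interval thus reaches nearly 1 log2 unit to either side of 0. In metestrus and diestrus the WT ratios were -0.04 ± 1.76 (n = 4) and -0.55 ± 0.95 (n = 6). Among KO mice the Otx2 ratio was -1.53 ± 1.16 for proestrus, with -0.72 ± 0.53 for metestrus, -0.74 ± 1.06 for diestrus and -0.80 ± 0.73 for estrus. The proestrus value rested on KO proestrus replicate 4, with a ratio of -3.18 from 5 counts of Otx2, and was -0.97 ± 0.44 without it.

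The Prlr ratio was lower in WT proestrus (-0.07 ± 0.71, n = 5) than in WT estrus (1.31 ± 0.79, n = 7), by 1.38 with an interval of 0.40 to 2.38 (exact permutation p = 0.0126). After adjustment over the 24 tests of both genes and 12 stage pairs it did not pass (adjusted p = 0.303). Per unit of log2 Ttr, Prlr (0.36) and Otx2 (0.50) rose less than Folr1, Slc4a5, Aqp1, Kcnj13 and Clic6 (0.57 to 0.87). They rose more than Sostdc1 (0.26) and Kl (0.16). Such a ratio can fall as Ttr rises, so these tests cannot tell a change in either gene from a difference in Ttr. Ratios in WT mice were 1.35 ± 1.51 in metestrus (n = 4) and 0.29 ± 0.87 in diestrus (n = 6), and in KO mice 0.65 ± 0.73 (metestrus, n = 5), 0.47 ± 0.78 (diestrus, n = 6), 0.71 ± 0.74 (proestrus, n = 4) and 1.25 ± 1.40 (estrus, n = 6). Of the 24 tests 1 had an unadjusted p under 0.05 and 0 passed, and in 0 of them did the groups fail to overlap. KO proestrus and KO estrus differed by -0.54 for Prlr (interval -2.39 to 1.25) and by -0.73 for Otx2 (-2.13 to 0.54), or by -0.17 for Otx2 without KO proestrus replicate 4. Against the curve on Ttr, which includes the floor, Prlr departed by 0.02 ± 0.20 in WT proestrus and 0.05 ± 0.33 in WT estrus, and Otx2 by 0.31 ± 0.58 and -0.31 ± 0.58.

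**Figure D4:**
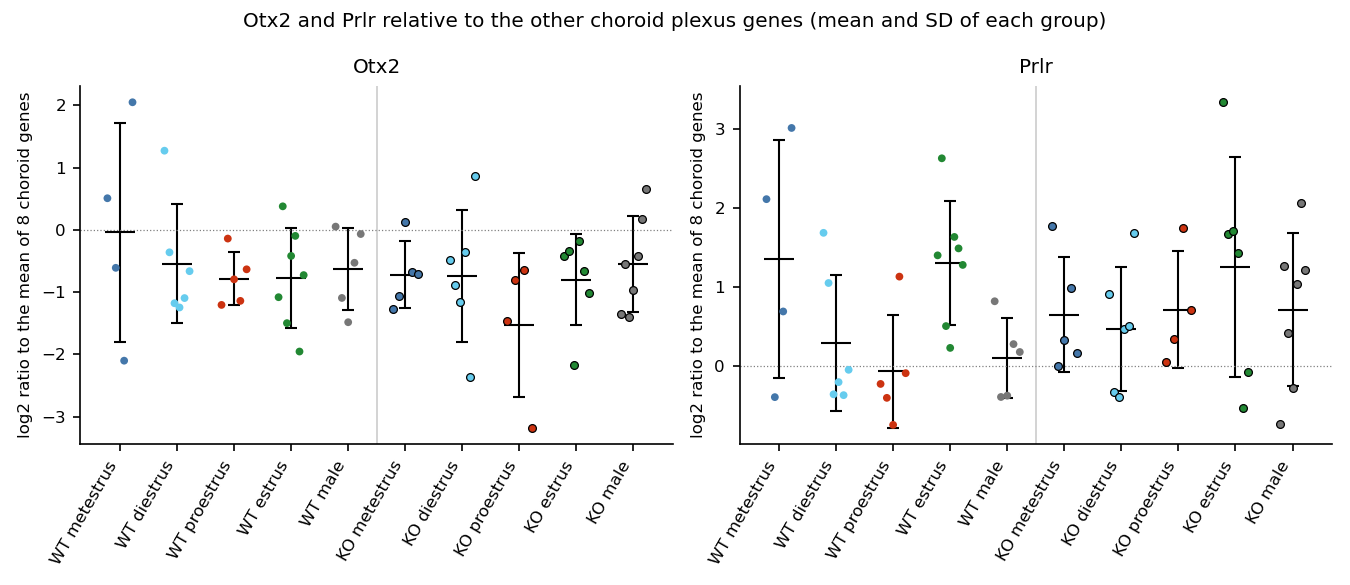
Log2 ratio of Otx2 (left) and Prlr (right) to the mean of the other 8 genes in each mouse, with group means (dashes) and bars of 1 SD; KO points have a black outline. Otx2 lies near -0.8 in both WT proestrus and WT estrus, and Prlr is lower in WT proestrus than in WT estrus with overlap between the groups.

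The departures from the curve were compared for all 9 genes and 12 stage pairs in 108 exact two-sided permutation tests. The number with an unadjusted p under 0.05 was 9, and 0 passed after adjustment (lowest adjusted p 0.234). Each of these 9 set diestrus against another stage, with the lower value in diestrus, for Clic6, Sostdc1, Prlr or Slc4a5, and in 2 of them the groups did not overlap. Sostdc1 departed by -0.34 ± 0.11 (SD) in the 6 WT diestrus mice and 0.23 ± 0.18 in the 5 WT proestrus mice, and no mouse of one group reached the other (-0.475 to -0.215 against -0.076 to 0.36). Clic6 departed by -0.78 ± 0.66 in KO diestrus (n = 6), 0.42 ± 0.44 in KO metestrus (n = 5) and 0.47 ± 0.71 in KO estrus (n = 6). Prlr departed by -0.31 ± 0.25 in KO diestrus and 0.29 ± 0.27 in KO proestrus, again with no overlap. All departures are taken against Ttr, so a shift in Ttr itself would move every one of them. With the mean of the 8 genes used for the ratios as a covariate in limma, Ttr and Clic6, both part of it, were called. This was so in KO diestrus against metestrus (2 of 10 members, beside 1336 of 16168 genes) and against proestrus (2 of 10, beside 5404). Against estrus Ttr, Clic6 and Kl were called (3 of 10, beside 4359). For proestrus and estrus the members' share was near or below that of all genes. Because each called gene is part of the covariate, its call is not a separate result about that gene. Which of these genes shifted was not tested. Against proestrus, diestrus cannot be told apart from the series of columns, as the first held all 9 proestrus mice and 0 diestrus mice. In WT, 4 of 6 diestrus and 1 of 5 proestrus mice had Cnih3 parents. Diestrus groups also held the youngest mice (median 14.36 weeks in WT and 12.43 weeks in KO). Mice of 14 weeks or more were too few to test this: 3 WT diestrus against 3 WT proestrus mice cannot give an exact p below 0.1, nor 2 KO diestrus mice against 1 KO proestrus mouse one below 0.333. In these older mice the difference between diestrus and proestrus was -0.54 for Sostdc1 in WT (-0.57 in all mice) and -0.64 for Prlr in KO (-0.59 in all mice). Neither pair overlapped, but 25 of the 108 tests did not in these mice, against 2 in all mice. The rest of the 9 were smaller in size than in all mice. Clic6 in KO had 0.94 (metestrus minus diestrus, 1.20 in all mice), -0.45 (diestrus minus proestrus, -0.91) and -0.999 (diestrus minus estrus, -1.25). Sostdc1 had 0.28 (WT metestrus minus diestrus, 0.47), -0.30 (WT diestrus minus estrus, -0.385) and -0.02 (KO diestrus minus estrus, -0.34). Slc4a5 had 0.26 (KO metestrus minus diestrus, 1.04).

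**Figure D5:**
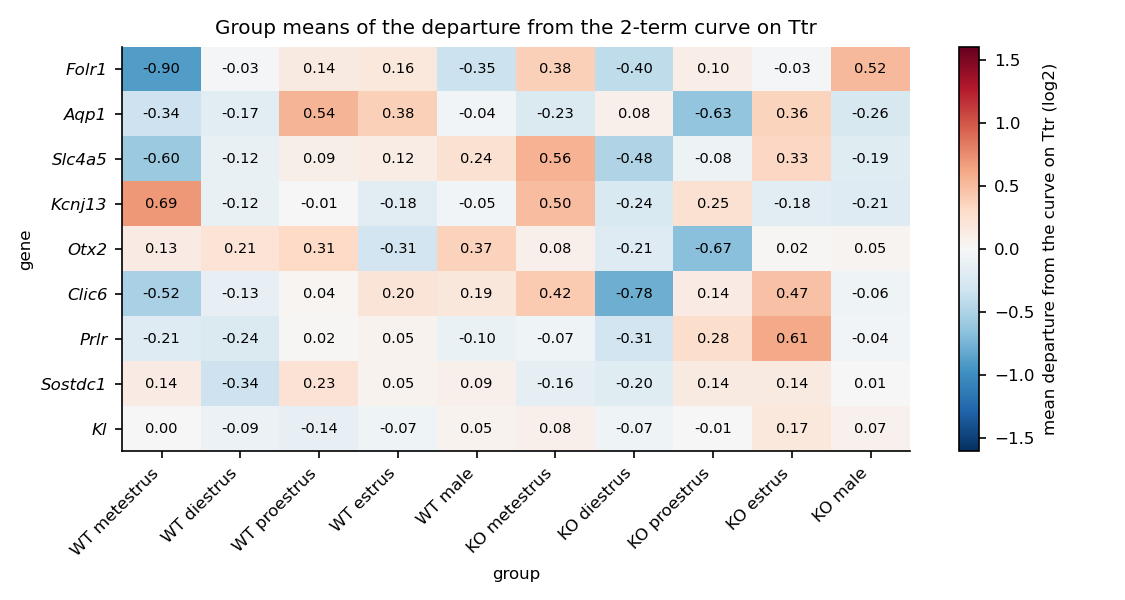
Mean departure (log2) of 9 genes from the curve on Ttr in each of the 10 groups, with the number in each cell and red for above and blue for below the curve. Clic6 in KO diestrus (-0.78) and Folr1 in WT metestrus (-0.90) are the lowest, and Prlr in KO estrus (0.61) rests on 2 of 6 mice.

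Prlr had 1 library that stood apart. KO estrus replicate 1 had 19.8 CPM of Prlr (954 counts) with 48.7 CPM of Ttr, which put it 2.74 above the curve, the highest of 55, and KO estrus replicate 2 was next at 1.29. In replicate 1 the other 8 genes departed by -0.42 (Slc4a5) to 1.84 (Aqp1), and Otx2 by 0.61. The same library, in genes picked after their values were seen, was the highest of the 55 for Gfap, an astrocyte filament gene (1972 CPM, against at most 430.7 in any other mouse), Cd44 (21.2 against 3.49), Fosb (76.6 against 12.2), Gal, the galanin gene (21.8 against 1.85), Penk (254.7 against 51.1) and Socs3, an inhibitor of cytokine receptor signalling (5.04 against 1.89). Without it, the Prlr ratio in KO estrus was 0.84 ± 1.06 (n = 5) and the Prlr ratio tests against the other KO stages had exact p of 0.515 to 0.849, and the Prlr difference by limma between KO proestrus and KO estrus was 0.74 in place of 0.72.

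Prl, the ligand of Prlr, is made in the pituitary, and its transcript was present in these libraries. It ran from 0.0932 to 140.0 CPM, and its group medians were 33.6 CPM in WT proestrus, 26.95 in WT estrus, 39.5 in WT metestrus, 9.73 in WT diestrus and 1.63 in WT males. In KO mice they were 53.6 in proestrus, 29.1 in estrus, 31.2 in metestrus, 15.7 in diestrus and 1.74 in males. Prl was higher in KO females than in KO males by 4.76 ± 1.24 on the log2 scale (adjusted p = 0.0159, limma). The WT difference between females and males had the same direction, 2.52 ± 1.33 (unadjusted p = 0.064, limma), but did not pass after adjustment. Prl was lower in WT diestrus than in WT estrus (-2.90 ± 1.06, adjusted p = 0.0420, limma). It was also lower in KO diestrus than in KO proestrus (-2.57 ± 0.77, adjusted p = 0.00733, limma). WT proestrus and WT estrus differed by -0.05 ± 0.67 (adjusted p = 0.977, limma). Gh and Pomc, other pituitary hormone genes, were also detected in every mouse. The source of this RNA was not tested.

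Downstream of the receptor, 9 of 10 genes of prolactin signalling were tested, and 1 was called in WT proestrus against WT estrus: Cish, a feedback inhibitor induced through STAT5 (0.74, adjusted p = 0.0214, limma). Socs3 had 0.995 (adjusted p = 0.179), the growth hormone receptor gene Ghr -0.09 and Jak2, the kinase bound to the receptor, -0.15 (0.451). The list's median was 0.02, and 1 gene of 9 is close to the 6.82% of all genes called.

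The genes most like the members, by Pearson's r to the mean log2 CPM of the 10 over the 55 mice after group means were removed, were 2900040C04Rik (0.941), Kcne2 (0.940), Ecrg4 (0.935), Calml4 (0.909), F5 (0.896), Tmem72 (0.893), Krt18 (0.868), Drc7 (0.865), Rbm47 (0.860) and Enpp2 (0.851). Of these, 6 stand in the list of further choroid epithelium genes. In WT proestrus against WT estrus 9 of the 10 were called, all higher, where 5.25% of all genes were. As these genes were picked in the same libraries for following the members, their calls are no separate support for the members' difference. Krt18, a keratin of simple epithelia, was at 3.20 and Enpp2, which encodes autotaxin, at 1.67, and F5 had 1.56 with an adjusted p of 0.108 (limma). These values share libraries with the members, and a correlation of this kind says nothing about shared control.

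At the transcript level, the estimated counts of Prlr fell on 1 transcript in every group, and those of Otx2 on several. Of 11 Prlr transcripts, Prlr-202, which starts at position 10177655, held 94.0% of the estimated counts summed over all mice, 90.0% in WT proestrus, 96.7% in WT estrus and 92.8% in KO estrus replicate 1. Of 11 Otx2 transcripts, Otx2-201, which starts at position 48665106, held 73.7%, and transcripts that start further upstream, at 48673819, 48667515 and 48667513, held 9.46%, 8.28% and 5.34%. Otx2-201 had 77.7% of 654.0 estimated counts in WT proestrus and 52.1% of 94.0 in WT estrus, where the transcript from 48673819 had 31.9%. In WT diestrus Otx2-201 had 18.5% of 247.0 and that transcript 35.7%. Otx2-201 had 75.9% in WT metestrus, 85.7% in WT males and 66.5 to 91.8% in the KO groups. These shares are descriptions, with no test and few counts in most groups.

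Sequence before the annotated starts of Otx2 and Prlr is shown because the 2 genes are a factor that binds DNA and a receptor that acts through one. RefSeq promoters (GRCm38.p6) were matched for 6 of the 10 members, Kcnj13, Kl, Aqp1, Slc4a5, Otx2 and Prlr, with 11 starts in all, and the 250 bases before each were searched on both strands for the OTX homeodomain motif TAATCC, the STAT motif TTCNNNGAA and the oestrogen response element GGTCANNNTGACC. TAATCC occurred before 1 of the 11 starts and in 6.25% of the 32851 promoters of the table, TTCNNNGAA before 2 and in 7.02%, and the oestrogen response element before 0 and in 0.0639%. The matches did not overlap each other: the Otx2 window with TAATCC also held a STAT motif 113 bases before the start, and the other STAT match was before Prlr. A match is not a site, and the absence of one says only that these letters are not in this window. The TAATCC match lay 211 bases before the Otx2 start at 48665109, beside the start of Otx2-201, in a window that other Otx2 transcripts hold as exon, and is shown in 30 bases with the motif, read here as its reverse complement, in capitals. The 2 Prlr stretches lie before the starts at 10177238, the first of the gene, and 10223906, an intronic start with a STAT motif 110 bases before it, in capitals. The windows of Kcnj13 and Aqp1, whose slopes on Ttr were 0.746 and 0.830, held none of the 3 motifs and are given for comparison.
Otx2, chr14:48665302-48665331, minus strand: gtgtgcccctcGGATTAtctcgttagttta
Prlr, chr15:10176988-10177237, plus strand: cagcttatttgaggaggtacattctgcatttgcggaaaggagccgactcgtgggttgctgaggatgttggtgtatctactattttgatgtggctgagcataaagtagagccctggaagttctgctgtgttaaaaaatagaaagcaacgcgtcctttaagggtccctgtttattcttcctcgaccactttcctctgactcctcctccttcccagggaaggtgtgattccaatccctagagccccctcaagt
Prlr, chr15:10223656-10223905, plus strand: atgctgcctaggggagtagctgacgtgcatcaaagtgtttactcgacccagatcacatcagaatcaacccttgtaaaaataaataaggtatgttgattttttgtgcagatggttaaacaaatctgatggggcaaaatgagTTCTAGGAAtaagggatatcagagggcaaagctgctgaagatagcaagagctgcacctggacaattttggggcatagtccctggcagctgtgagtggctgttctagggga
Kcnj13, chr1:87394730-87394979, minus strand: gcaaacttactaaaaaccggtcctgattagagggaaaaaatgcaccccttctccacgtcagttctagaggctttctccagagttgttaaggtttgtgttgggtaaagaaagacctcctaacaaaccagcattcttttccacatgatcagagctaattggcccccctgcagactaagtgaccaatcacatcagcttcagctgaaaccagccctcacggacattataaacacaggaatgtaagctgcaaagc
Aqp1, chr6:55336049-55336298, plus strand: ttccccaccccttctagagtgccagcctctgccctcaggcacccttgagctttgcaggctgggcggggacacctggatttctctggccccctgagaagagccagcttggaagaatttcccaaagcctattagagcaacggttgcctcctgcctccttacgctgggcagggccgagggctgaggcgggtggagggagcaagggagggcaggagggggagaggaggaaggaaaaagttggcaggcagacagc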

How the data were processed

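RNA-seq had been run on the dorsal-most portion of 1 hippocampus per mouse. Per the study's methods, tissue was lysed in NP-40 and spun, and polyadenylated RNA was amplified with a SMARTer Ultra Low kit and sequenced paired-end. The authors aligned reads with STAR 2.7.9a to GRCm38 and deposited gene counts from featureCounts 2.0.3 and estimated counts per transcript from Salmon 1.5.2, unscaled. The authors also deposited log2 CPM of the genes they analysed, which the member values here matched to 3.6e-14. Even numbers made up 60.1% of the nonzero gene counts up to 10; whether the mates of a pair were counted separately is not given in the sources used here. The deposited tables have 1 column that matched no sample and was not used.

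Groups came from the labels. Genes above 1 CPM in at least 10 libraries were kept, without 5 ribosomal genes, which left 16168. As in the study's methods, limma 3.58.1 with voom quality weights and TMM factors (edgeR 4.0.16, R 4.3.3) was fitted with 1 mean per group, and p-values were adjusted (Benjamini-Hochberg) within each of 26 comparisons with a threshold of 0.05. Ratios and departures were compared with exact two-sided permutation tests (scipy 1.17.1), and intervals invert that test. Scripts were tested on simulated data. Alternatives were edgeR's quasi-likelihood test, DESeq2 1.42.0, no quality weights, other size factors, no filter, age as a covariate, mice of 14 weeks or more, mice whose parents the study's supplement lists as Cnih3 x B6, other reference genes or added counts for the ratios, and each mouse left out. The named genes are the members, Prl, the 10 genes with the highest r to the members' mean, and up to 4 genes per list with the highest or lowest log2 fold change in WT proestrus against WT estrus; where a list had 5 or fewer calls, these were also named after their values were seen. Members and lists were chosen with earlier results of these data known. The labels give 1 library per mouse, so p-values measure the spread between mice.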

Additional observations from a re-analysis of the deposited data

Results flagged for a closer look

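In 120 groups of mice, over the 10 genes and the ratios of Otx2 and Prlr, 11 values lay apart from the rest of their group by Dixon's criterion at 95%, which chance meets in about 1 of 20 groups. KO metestrus replicate 2, the mouse of its group with the most Ttr, was apart for Kl (5.16 log2 CPM, nearest mouse 4.08), Sostdc1 (4.81, nearest 2.47) and Prlr (4.33, nearest 1.56). KO estrus replicate 6, which had the most Ttr of its group, was apart for Kl (5.37, nearest 4.29), Sostdc1 (4.42, nearest 2.96) and Slc4a5 (2.31, nearest -1.47). In WT mice the high values were Kl in metestrus replicate 1 (4.04, nearest 3.82), Sostdc1 in diestrus replicate 4 (3.91, nearest 2.72) and the Otx2 ratio in diestrus replicate 1 (1.27, nearest -0.36). Low values were Folr1 in WT estrus replicate 2 (-6.63 log2 CPM, nearest -1.77) and Aqp1 in WT estrus replicate 1 (-6.91, nearest -3.46), both of genes with few counts.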

How the results depend on the processing

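No paired analysis was possible because the replicate numbers were given in accession order and tie no mouse of one group to a mouse of another. The 9 member calls between stages became 0 by edgeR's quasi-likelihood test, without quality weights, without the filter on low counts, with age as a covariate and among mice of Cnih3 x B6 parents (1 WT mouse in each of proestrus and estrus), 4 by DESeq2 and 20 among mice of 14 weeks or more, and ran from 1 to 23 when 1 mouse was left out. Otx2 in WT proestrus against WT estrus (3.16) kept its direction but not its call by edgeR (3.20, adjusted p = 0.0613), without weights (2.698, 0.198), without the filter (2.85, 0.166), with age (3.34, 0.0506) and among Cnih3 x B6 offspring (2.11, 0.694), and was 2.78 to 3.86 with 1 mouse left out. Prlr (1.66) lost its call by edgeR (1.56, adjusted p = 0.272), by DESeq2 (1.56, 0.238), without weights (1.30, 0.387), without the filter (1.39, 0.389), with age (1.65, 0.186) and among Cnih3 x B6 offspring (0.643, 0.893), and was 1.36 to 2.09, with the call lost in 7 of 55, when 1 mouse was left out. The Otx2 ratio difference, -0.01, took the other sign with 2 added to counts (0.13), among Cnih3 x B6 offspring (0.0925), in limma with the 8-gene mean as a covariate (0.84) and as the departure from the curve, chosen after seeing the data (0.62), and was -0.21 to 0.18 with 1 mouse left out; it passed in none. The Prlr ratio difference (-1.38) was -2.67 with Ttr alone as the reference, -0.21 in limma with the 8-gene mean as a covariate and -0.03 (adjusted p = 0.922, exact permutation test) as the departure from the curve, and was -1.68 to -1.16 with 1 mouse left out. The causes were not tested. Calls between sexes, between genotypes, for genotype by stage and for the ratios were 0 in each alternative run and each mouse left out. Counts limit Aqp1, Slc4a5 and Folr1, which had no reads in 9, 3 and 2 mice.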
